A study of Mus musculus with 16 samples.

Results

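Host microglia, the brain's own macrophages that had survived irradiation in bone marrow chimeras, were compared with and without a challenge by bacterial lipopolysaccharide (LPS). The 8 libraries of this comparison were taken by their labels from a series of 16, with 4 from LPS challenged mice (mice 1 to 4) and 4 from unchallenged mice (mice 5 to 8). All 8 mice were C57BL/6J wild-type recipients carrying the CD45.2 allele, which had been irradiated with 950 cGy and given bone marrow of CD45.1 donors, so that host cells and engrafted cells of the same brain could be sorted apart. The sort of host microglia kept CD11b-positive cells of low CD45.2 that lacked Ly6C and Ly6G, with 10000 cells per sample by the labels, after digestion of the brain with collagenase. LPS from E. coli 0111:B4 was injected into the peritoneum at 2.5 mg/kg, 12 h before sorting. The control mice are not described as injected with a vehicle, so LPS and the injection itself cannot be told apart. By the methods, the challenge came 9 months after transplantation, whereas the labels list 3.5 or 9 months and assign no time to a library. All groups therefore share irradiation, transplantation and residence beside engrafted cells, and no microglia of unirradiated mice were among these libraries.

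LPS, a component of the wall of Gram-negative bacteria, is bound by CD14 and recognised by Toll-like receptor 4 (TLR4). The adaptors MyD88 and TRIF pass the signal on to the transcription factor NF-κB, which drives genes of cytokines and chemokines and also genes of its own inhibitors, and to the interferon regulatory factors, which drive type I interferon and the genes that interferon induces. Microglia at rest are known for a set of genes, among them those of the purinergic receptor P2RY12, the fractalkine receptor CX3CR1 and the transcription factor SALL1, which depend in part on TGF-β and are lost by microglia in inflammation and in culture.

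Reads on genes ranged from 677590 to 1024405 per library in the LPS group and from 648933 to 1203597 in the control group, and 11748 to 11967 and 12006 to 12445 genes, respectively, had a read. Levels are given as CPM, read counts scaled to a common effective library size, in the order of mice 1 to 4 for LPS and mice 5 to 8 for controls. Since the tags mark the 3′ end of a transcript, a CPM is not divided by length and is used to compare libraries, not genes. A count of 0 allows up to 3 reads, which corresponds to 2.39 to 4.39 CPM depending on the library. Such limits cover counting error only, since no removal of PCR duplicates is named. Replicates were separate mice.

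The cells carried the markers of microglia in both groups. The summed level of 10 microglia markers was 21383 to 23968 CPM in the control libraries and 9403 to 10653 CPM in the LPS libraries, and 8 of the 10 were themselves lower after LPS. In a bulk sample, fewer cells of a type and less RNA per cell cannot be told apart. Summed levels of other cell types were small in comparison. Of 12 neutrophil markers, Ly6g, Retnlg, Mmp8 and Mmp9 had no read in any library, none passed the filter for low counts, and the sum was 0 to 2.39 CPM in controls and 9.66 to 15.95 CPM after LPS, without overlap. Of 8 monocyte markers none passed that filter either, with sums of 9.57 to 25.5 and 20.9 to 54.3 CPM. The 12 perivascular macrophage markers summed to 33.7 to 48.6 and 34.9 to 41.7 CPM. Sums for astrocytes (213 to 319 and 179 to 259 CPM), oligodendrocytes (156 to 223 and 87.7 to 136 CPM) and endothelial cells (15.95 to 26.6 and 8.03 to 24.1 CPM) overlapped between the groups or were lower after LPS. The B cell sum was 37.9 to 49.02 CPM in controls and 18.1 to 22.9 CPM after LPS, while Cd79a, Ms4a1 and Pax5 were at 0 in every library. Markers of T and NK cells stayed at or below 21.9 CPM. Red blood cell genes reached 1077 CPM in control mouse 8 and 1207 CPM in LPS mouse 4, and neuronal genes reached 322 CPM in 1 control library against at most 31.9 CPM in any LPS library. The part of these cells in the changes described here was not tested. The counts of genes called were 632 higher and 900 lower without the 2 libraries high in red blood cell genes.

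LPS moved genes in both directions. Of 24411 genes in the table, 15202 had a read in a host library and 8238 were tested. A gene was called when its change exceeded 2-fold (an absolute log2 fold change above 1) with an adjusted p below 0.05, and 1324 genes were called, or 16.1% of those tested. Of these, 559 (6.79%) were higher and 765 (9.29%) lower after LPS. At the extremes, 60 called genes rose by more than 3 on the log2 scale and 19 fell by more than that, whereas 6913 genes (83.9%) stayed within 2-fold and the median log2 fold change over all genes was 0.01. In 1261 of the called genes the 2 groups did not overlap, against 2942 (35.7%) of all genes tested. Of the genes called higher, 22 had 3 reads or fewer in every control library, and 11 called lower had 3 reads or fewer in every LPS library.

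**Figure D1:**
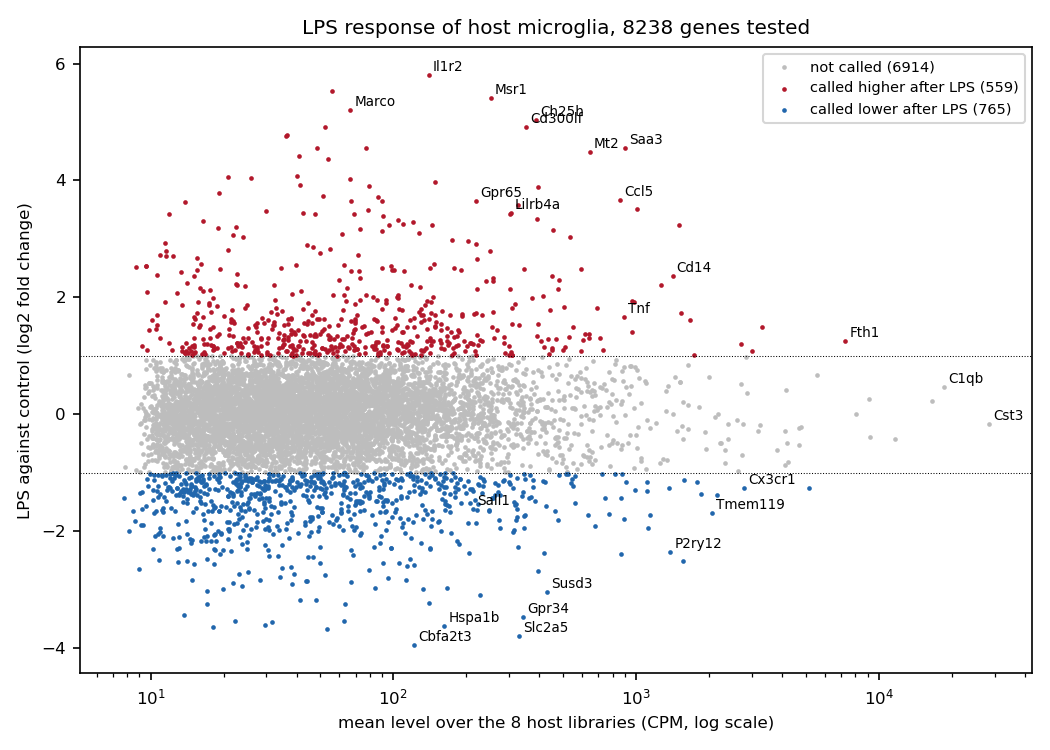
Change of each of 8238 genes after LPS in host microglia (y axis, log2 fold change of LPS against control) by its mean level over the 8 host libraries (x axis, CPM on a log scale). Red points mark the 559 genes called higher, blue points the 765 called lower and grey points the rest, the dotted lines mark a 2-fold change, and the called genes spread over the whole range of levels up to Fth1.

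All 4 LPS mice responded, by different amounts. The first principal component of the 500 most variable genes held 87.1% of the variance and separated control libraries (-27.7 to -25.6) from LPS libraries, which stood at 31.1, 30.97, 23.95 and 20.5 for mice 1 to 4. For each library in turn, genes were called on the other 7 and its own levels were then read against the mean of the other control libraries. Genes called higher in this way had a median difference of 1.54, 1.57, 1.34 and 1.17 on the log2 scale in LPS mice 1 to 4, and genes called lower a median difference of -1.55, -1.55, -1.24 and -1.14. Between 98.3 and 99.9% of these genes moved in the called direction in each LPS library. In the control libraries the same medians ran from 0.01 to 0.17 and from -0.10 to -0.01. The reference controls had also taken part in calling these genes, which by itself tilts the differences toward the called direction. The size of that tilt was not tested. LPS mice 3 and 4 stood nearest to the controls by both measures. Among the 526 genes called higher without overlap, the lowest of the 4 LPS libraries was that of mouse 4 in 250 genes and that of mouse 1 in 59.

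**Figure D2:**
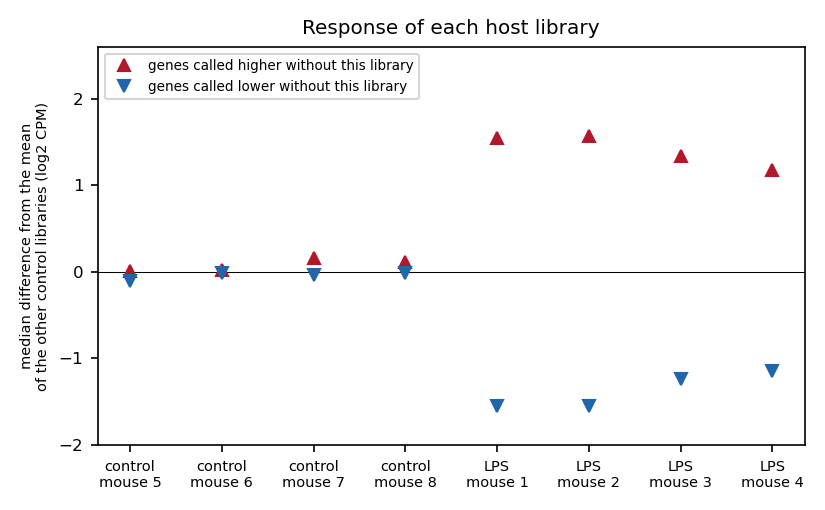
Median difference of each host library from the mean of the other control libraries (y axis, log2 CPM) over the genes called higher (red, upward triangles) and lower (blue, downward triangles) when that library was left out. Control libraries lie between -0.10 and 0.17, whereas LPS libraries lie at 1.17 to 1.57 for genes called higher and at -1.55 to -1.14 for genes called lower, with mice 3 and 4 the nearest to the controls.

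The 12 called genes with the largest rise, among those whose groups did not overlap and whose mean reached 50 CPM, had log2 fold changes that ran from 4.03 to 5.80. Msr1, the class A scavenger receptor (chromosome 8, 40688806 to 40728032, minus strand, NCBI37/mm9), stood at 591, 546, 429.8 and 412 CPM after LPS and 4.39, 2.91, 13.6 and 15.3 CPM in controls. Every LPS library was far above every control library (log2 fold change 5.405 ± 0.26 (SE), adjusted p = 1.14e-12). Marco, a scavenger receptor of the same class that binds bacteria, was at or below the limit of detection in controls, with 0, 0.971, 1.595 and 3.06 CPM, and at 211, 260.2, 33.8 and 20.9 CPM after LPS. Its mean LPS level was 41.2-fold that limit, and mice 1 and 2 stood well above mice 3 and 4. The fitted log2 fold change was 5.20 ± 0.66 (SE). Il1r2, the decoy receptor that binds interleukin-1 without signalling, had the largest fitted fold change (log2 fold change 5.797 ± 0.41 (SE), adjusted p = 3.49e-10). For genes at the limit in controls, such as Marco, the mean LPS level is given relative to that limit. The levels of Il1r2 were 146, 171, 308 and 483 CPM after LPS and 4.39, 0, 3.99 and 3.06 CPM in controls, so that mouse 4 was highest here. Ch25h, which makes 25-hydroxycholesterol, held 959.9, 1779.7, 197 and 84.9 CPM after LPS and 16.1, 28.2, 24.7 and 12.3 CPM in controls. The LPS libraries of this gene differed widely among mice without reaching the controls (log2 fold change 5.04 ± 0.64 (SE), adjusted p = 1.61e-06).

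Cd300lf, an inhibitory receptor of myeloid cells, rose evenly, with 734, 633, 629 and 748 CPM after LPS and 14.6, 15.5, 26.3 and 23.5 CPM in controls (log2 fold change 4.92 ± 0.19 (SE), adjusted p = 8.35e-14). Trem1, an amplifier of inflammatory signalling, was at 84.9, 105, 106 and 118 CPM after LPS and 4.39, 0.971, 0 and 1.02 CPM in controls. Its mean LPS level was 32.4-fold the limit of detection (fitted log2 fold change 4.92 ± 0.30). Both genes differed little among the 4 LPS mice. Il1rn, the interleukin-1 receptor antagonist, was at 290.1, 195, 71.2 and 41.7 CPM after LPS and 2.93, 3.88, 2.39 and 8.17 CPM in controls, and its LPS levels fell apart by mouse with mouse 4 lowest. Saa3, an acute phase serum amyloid, rose from 70.5 ± 47.1 to 1733 ± 1127 CPM (mean ± SD, n = 4; log2 fold change 4.55 ± 0.42), and Mt2, a metallothionein that binds zinc, rose from 52.8 ± 3.296 to 1238 ± 611 CPM (log2 fold change 4.48 ± 0.28). For both, mice 1 and 2 stood above mice 3 and 4. Lrg1, a secreted leucine-rich glycoprotein of the acute phase, had at most 1 read in a control library and 73.4, 75.8, 126 and 172 CPM after LPS. Its mean LPS level was 35.04-fold the limit (fitted log2 fold change 5.53 ± 0.37). Il18rap, a subunit of the interleukin-18 receptor, and Sema6b, a semaphorin, rose from 2.91 ± 1.09 to 105 ± 17.3 CPM and from 6.12 ± 3.61 to 127 ± 27.7 CPM.

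**Figure D3:**
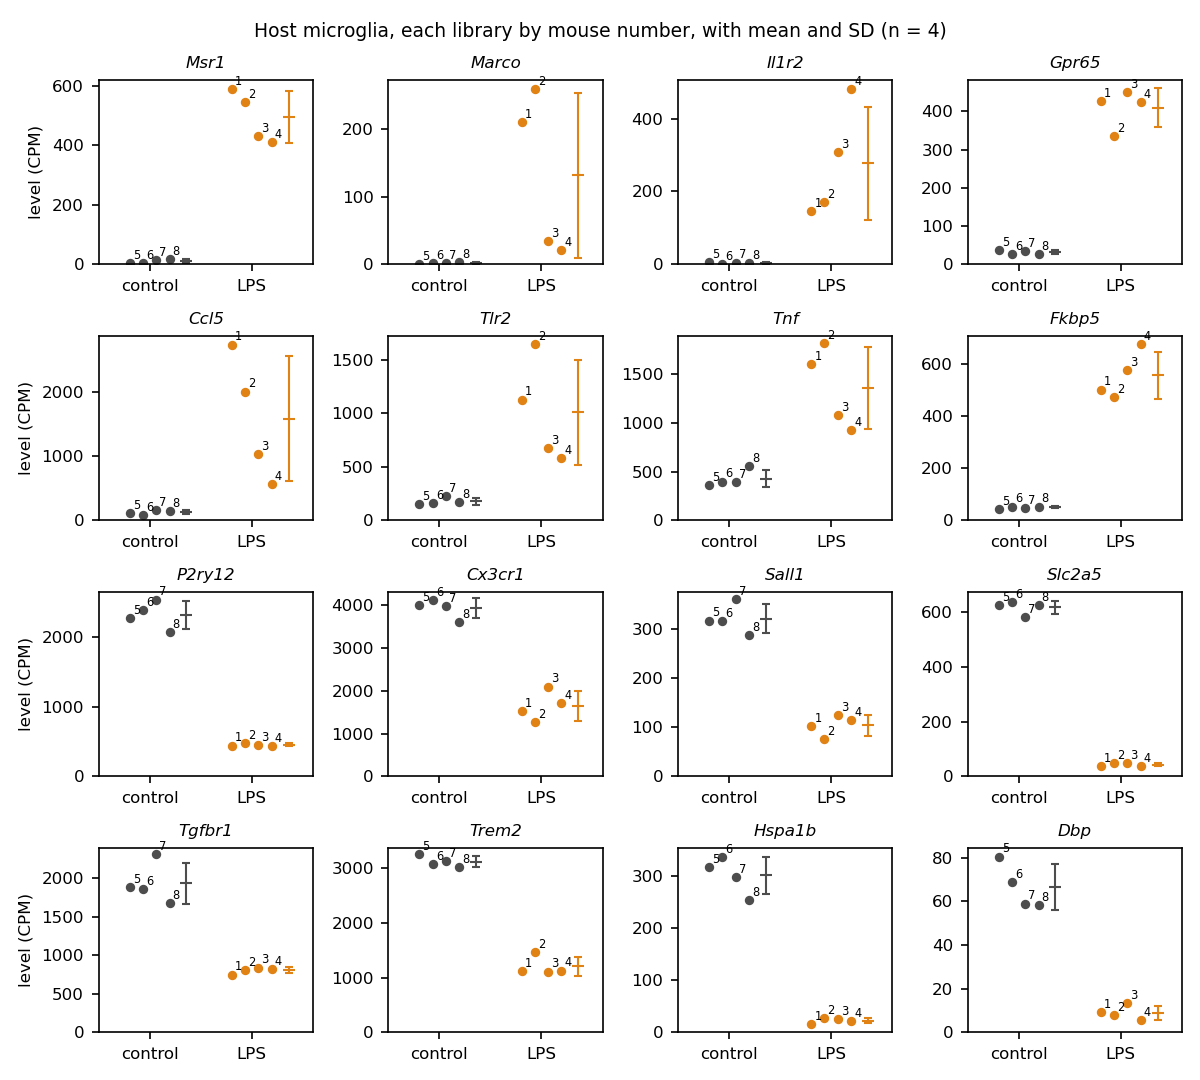
Level of 16 genes in each host library (y axis, CPM, from 0), with points numbered by mouse and a bar for the mean ± SD of 4 libraries, controls in grey and LPS in orange. Marco, Ccl5, Tlr2 and Tnf are higher in LPS mice 1 and 2 than in mice 3 and 4, Il1r2 and Fkbp5 are highest in mouse 4, and the groups do not overlap in any of the 16 genes.

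**Figure D4:**
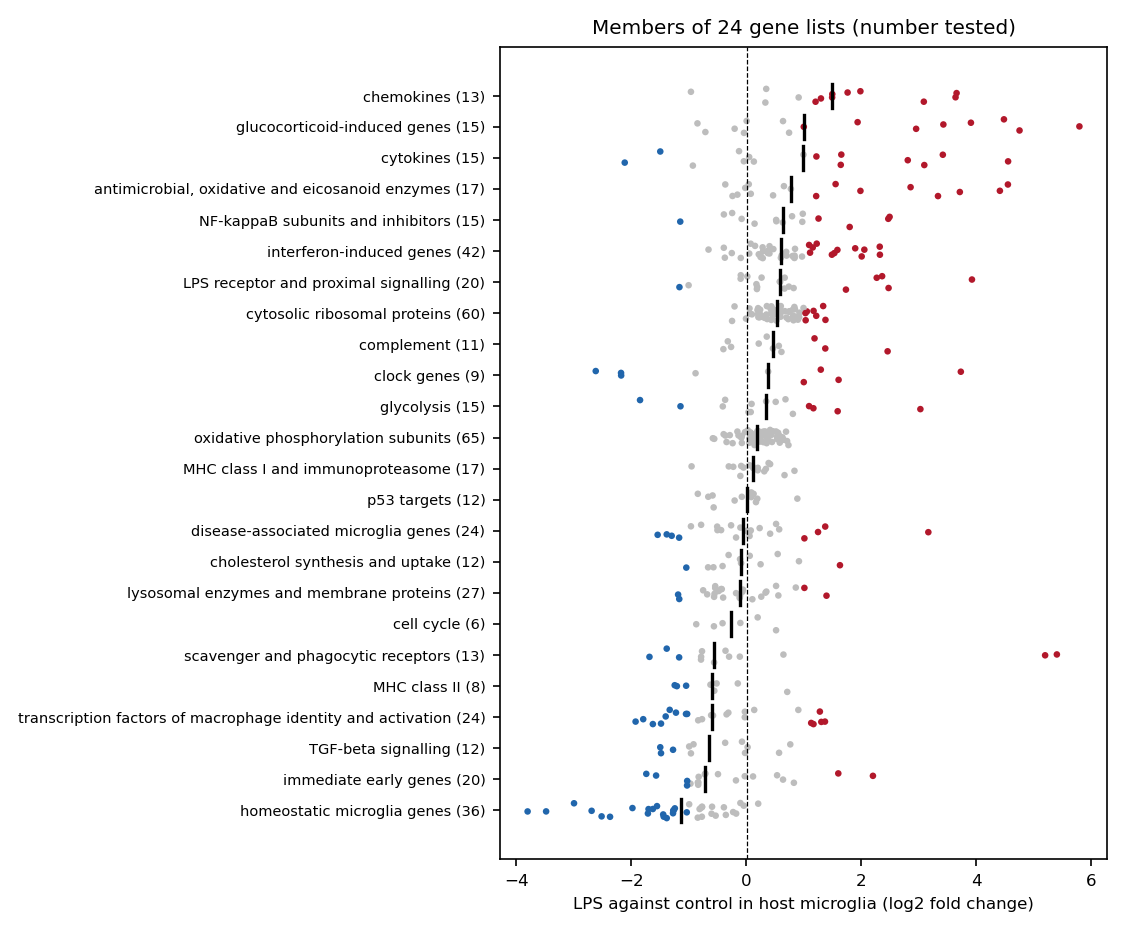
Change after LPS of the tested members of 24 gene lists (x axis, log2 fold change), with the number tested in brackets, members called higher in red, called lower in blue and not called in grey. The black bars mark each list's median, from -1.14 for homeostatic microglia genes to 1.496 for chemokines, and the dashed line marks the median of all genes tested, 0.01.

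Genes of LPS recognition that were called were mostly higher. Of 20 tested members of a list of 23, 5 were called higher and 1 lower, against 6.79% higher and 9.29% lower of all genes tested, with a median log2 fold change of 0.59. Tlr4 was the one called lower, with 30.96, 31.9, 38.6 and 30.6 CPM after LPS and 83.4, 72.8, 91.7 and 55.1 CPM in controls. Its groups did not overlap (log2 fold change -1.16 ± 0.196 (SE), adjusted p = 6.1e-05). Cd14, the co-receptor that hands LPS to TLR4, rose from 454 ± 69.7 to 2372 ± 1074 CPM (log2 fold change 2.37 ± 0.23). Tlr2, the receptor for bacterial lipopeptides, was at 1126, 1644, 670.1 and 583 CPM after LPS and 151, 161, 224 and 171 CPM in controls (log2 fold change 2.48 ± 0.25 (SE), adjusted p = 5.32e-08). Ikbke, a kinase upstream of interferon regulatory factors, had 106, 135, 50.7 and 26.4 CPM after LPS and 1.46, 3.88, 4.79 and 2.04 CPM in controls, a log2 fold change of 3.93 ± 0.42. Map3k8 and Irak3, the latter a brake on this pathway, were the other members called higher. The abundant members Peli1 and Irak1 changed by 0.59 and 0.67 and were not called.

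Among NF-κB genes, those called higher were regulators and inhibitors. Of 15 members tested, 4 were called higher and 1 lower, against 6.79% and 9.29% of all genes tested. Tnfaip3, whose product A20 ends NF-κB signalling, stood at 439, 499.5, 176 and 179 CPM after LPS and 54.2, 44.7, 75.8 and 49.02 CPM in controls (log2 fold change 2.47 ± 0.28 (SE), adjusted p = 4.01e-07). Bcl3, a nuclear member of the IκB family, and Zc3h12a, an RNase that degrades cytokine messages, rose from 25.8 ± 5.05 to 154 ± 37.1 CPM and from 56.8 ± 3.56 to 204 ± 43.98 CPM, and Nfkbiz had a log2 fold change of 1.26 ± 0.14. Nfkbid fell, from 173 ± 5.22 to 77.5 ± 10.2 CPM (log2 fold change -1.14 ± 0.15 (SE), adjusted p = 3.01e-06). Among the subunits, Rela changed by 0.15 ± 0.15 and was not called. Nfkbia, the classical inhibitor, reached a log2 fold change of 0.98 ± 0.18 without overlap between the groups, just short of the 2-fold threshold. It was called without control mouse 5 (1.04), LPS mouse 3 (1.07) or LPS mouse 4 (1.13). Without a filter for low counts (1.005) or without the libraries high in red blood cell genes it was called too. In the latter fit 7 members of the list were called higher.

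Cytokine and chemokine genes that were called were mostly higher. Among cytokines, 7 of 15 tested members (list of 26) were called higher and 2 lower (median 0.998), and among chemokines 9 of 13 tested members (list of 28) were called higher and 0 lower (median 1.496), against 6.79% and 9.29% of all genes tested. Tnf, a cytokine that microglia secrete early, was at 1603, 1821, 1082 and 931 CPM after LPS and 362, 397, 389 and 556 CPM in controls. All LPS libraries were above all controls (log2 fold change 1.66 ± 0.19 (SE), adjusted p = 6.14e-07). Il1b rose from 25.3 ± 3.403 to 231 ± 121 CPM (log2 fold change 3.099 ± 0.28) and Tnfsf9, the ligand of 4-1BB, from 5.997 ± 4.96 to 89.5 ± 58.04 CPM. Il12b, the p40 subunit shared by interleukins 12 and 23, reached 42.4, 72.8, 21.7 and 16.7 CPM against 1.46, 2.91, 7.18 and 2.04 CPM in controls (log2 fold change 2.81 ± 0.41 (SE), adjusted p = 9.52e-06). Il15 and Tgfb1 fell from 39.2 ± 10.8 to 7.46 ± 2.33 CPM and from 563 ± 129.5 to 200.1 ± 21.1 CPM (log2 fold changes -2.11 ± 0.27 and -1.49 ± 0.17). Ebi3 and Il16 changed by -0.12 and -0.93 and were not called.

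Ccl5, a chemokine for T cells and monocytes, held 2744, 2010.1, 1036 and 566 CPM after LPS and 117, 78.7, 152 and 143 CPM in controls (log2 fold change 3.66 ± 0.34 (SE), adjusted p = 2.35e-08). Mouse 1 was highest and mouse 4 lowest among the LPS libraries, all clear of the controls. Cxcl2, a neutrophil chemokine, was at 213, 283, 104 and 76.5 CPM after LPS and 4.39, 10.7, 9.57 and 20.4 CPM in controls (log2 fold change 3.64 ± 0.36), and Cxcl13, a B cell chemokine, at 101, 214, 48.3 and 83.5 CPM after LPS and 11.7, 11.7, 17.5 and 3.06 CPM in controls. Cxcl10, an interferon-induced chemokine, was called higher (log2 fold change 1.99 ± 0.44 (SE), adjusted p = 0.000997) although LPS mice 3 and 4, with 170.2 and 186 CPM, stood below control mouse 7, with 247 CPM. Ccl2 changed by 0.34, Ccl12 by 0.91 and Ccl6 by -0.96, and none of these was called. The calls of Ccl12 and Ccl6 turned on single libraries, since Ccl12 passed without control mouse 7 (1.06) or LPS mouse 4 (1.06), and Ccl6 without control mouse 8 (-1.01) or LPS mouse 2 (-1.07).

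The promoters of Tlr2, Cxcl2 and Isg15 are shown because each holds a motif of the pathways named above. The 250 bases before the start of the gene were taken from RefSeq (GRCm38.p6) and written in the direction of transcription, with the motif in capitals. Searched on both strands of 250 bases before to 50 bases after the start were an NF-κB motif (GGGA, 1 free base and TTTCC or TTCCC), AP-1 (TGANTCA) and the core of the interferon response element (GAAA, 2 free bases and GAAA). Tlr2 lies at chr3:83841609-83841858 on the minus strand with an NF-κB match 172 to 163 bases before the start, Cxcl2 at chr5:90903649-90903898 on the plus strand with one 97 to 88 bases before it, and Isg15, an interferon-induced modifier protein, at chr4:156200819-156201068 on the minus strand with 3 overlapping cores between 78 and 57 bases before it.
Tlr2: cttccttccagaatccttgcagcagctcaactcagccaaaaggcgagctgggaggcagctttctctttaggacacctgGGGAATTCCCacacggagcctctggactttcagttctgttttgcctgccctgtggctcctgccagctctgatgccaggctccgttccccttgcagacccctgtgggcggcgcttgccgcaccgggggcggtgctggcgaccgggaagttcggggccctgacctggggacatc
Cxcl2: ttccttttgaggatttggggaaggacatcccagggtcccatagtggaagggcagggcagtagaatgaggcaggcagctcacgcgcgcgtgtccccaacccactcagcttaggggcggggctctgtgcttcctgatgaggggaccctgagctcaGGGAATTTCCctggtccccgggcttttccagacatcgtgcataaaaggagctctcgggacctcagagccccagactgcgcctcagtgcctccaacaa
Isg15: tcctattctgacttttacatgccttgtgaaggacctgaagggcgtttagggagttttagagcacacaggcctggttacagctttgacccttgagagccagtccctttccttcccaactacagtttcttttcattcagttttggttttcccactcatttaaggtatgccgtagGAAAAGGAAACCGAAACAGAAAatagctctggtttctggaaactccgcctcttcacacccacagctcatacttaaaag
Among genes called higher, 460 of 559 had a promoter in the table, and 1.74% of these held the NF-κB motif, 12.2% the AP-1 motif and 8.04% the interferon core. Among genes called lower, 613 of 765 had one, with 1.31, 4.89 and 3.75%. The genes tested and not called held the motifs in 1.10, 5.43 and 3.46%, and all 27025 genes of the table in 0.873, 8.97 and 3.99%. A match of letters is a description of the sequence and not a measured site. Of 50 named genes called higher with a promoter, 3 held the NF-κB motif, 7 the AP-1 motif and 6 the interferon core, and 15 held any of these. The share with any motif was not counted over all genes. A gene with several promoters counted when any of them matched.

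Interferon-induced genes were called in 1 direction alone. Of 42 tested members of 47, 12 were called higher and 0 lower, against 6.79% and 9.29% of all genes tested. Their median log2 fold change was 0.61. Oasl1 and Slfn2, both induced by type I interferon, rose from 22.6 ± 5.902 to 124 ± 74.3 CPM and from 83.2 ± 15.5 to 431 ± 149 CPM, and Zbp1, a sensor of nucleic acids, from 13.3 ± 4.23 to 63.05 ± 14.9 CPM. Isg15 was at 133, 232, 79.7 and 47.3 CPM after LPS and 30.7, 48.6, 63.01 and 60.3 CPM in controls, and its groups overlapped through mouse 4 (log2 fold change 1.23 ± 0.31 (SE), adjusted p = 0.00334). Without LPS mouse 2 the log2 fold change of Isg15 was 0.75 and it was no longer called. Irf7, the regulator of the interferon response, reached 0.97 ± 0.18 without overlap and was not called, but was called with DESeq2 (1.00) and without control mouse 7, control mouse 8 or LPS mouse 4 (1.01, 1.02 and 1.11). Lgals3bp and Bst2 changed by 0.81 and 0.08 and were not called. Without the libraries high in red blood cell genes, Irf7 (1.16) and Lgals3bp (1.01) were called higher. The genes of MHC class I and the immunoproteasome had 0 of 17 tested members called in either direction by edgeR (4 higher and 2 lower at an unadjusted p below 0.05, and neither DESeq2 nor limma-trend called any). Its members B2m and H2-D1 changed by 0.42 and -0.04.

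Antimicrobial and oxidative enzymes held members called higher and none called lower. In a list of 23 genes, 8 of 17 tested were called higher (median 0.78), against 6.79% of all genes tested. Acod1, which makes itaconate, was at or near the limit in controls (0, 0.971, 2.39 and 3.06 CPM) and at 99.8, 159.5, 42.3 and 18.1 CPM after LPS. Its mean LPS level was 25.05-fold the limit (fitted log2 fold change 4.41). Lcn2, which withholds iron from bacteria, stood at 239.7, 253, 84.5 and 75.1 CPM after LPS and 0, 3.88, 13.6 and 21.4 CPM in controls (log2 fold change 3.72 ± 0.44). LPS mice 1 and 2 were again above mice 3 and 4, and no library of the 2 groups overlapped. Sod2, the mitochondrial superoxide dismutase, rose from 68.5 ± 9.18 to 715 ± 549.9 CPM, and Cybb, the catalytic subunit of the phagocyte NADPH oxidase, from 40.5 ± 6.15 to 169 ± 81.1 CPM, while its partner Cyba changed by 0.05. Hp, haptoglobin, was called higher (log2 fold change 1.22 ± 0.405 (SE), adjusted p = 0.0201) with overlapping groups, and lost the call without control mouse 6 (1.14), control mouse 7 (1.00) or LPS mouse 1 (0.98). Ptgs1 changed by -0.36 and was not called.

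The complement genes called were led by 2 receptors. In this list 3 of 11 tested members were called higher and 0 lower, against 6.79% and 9.29% of all genes tested. C5ar1, the receptor of C5a, held 148, 154, 168 and 207 CPM after LPS and 32.2, 18.5, 26.3 and 38.8 CPM in controls (log2 fold change 2.46 ± 0.202 (SE), adjusted p = 3.51e-09), and C3ar1, the receptor of C3a, 1032, 1139.6, 813 and 602 CPM after LPS and 366, 377, 368 and 254 CPM in controls (log2 fold change 1.38 ± 0.18 (SE), adjusted p = 3.06e-06). Neither gene overlapped between the groups. Cfp, properdin, was called at a low level (from 8.61 ± 5.95 to 21.5 ± 4.45 CPM; log2 fold change 1.19 ± 0.33), and not without control mouse 6 (0.98) or control mouse 7 (0.94). The C1q components C1qb and C1qa changed by 0.47 and 0.22 and were not called. Against these same shares of all genes, scavenger and phagocytic receptors split. Msr1 and Marco were the 2 of 13 tested members called higher, and 3 were called lower. These were Gas6, the bridging ligand of the TAM receptors (from 261 ± 28.5 to 81.7 ± 31.96 CPM), Trem2, a lipid receptor of microglia, and Clec7a, the β-glucan receptor dectin-1 (from 56.4 ± 5.93 to 23.9 ± 6.87 CPM). Cd68 and Lrp1 changed by -0.78 and -0.296.

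Targets of the glucocorticoid receptor were called higher in part. Of 15 tested genes of this list, 8 were called higher and 0 lower (median 1.003), against 6.79% and 9.29% of all genes tested. By the adjusted p alone, 10 were higher and 2 lower, against 1581 and 1688 of all 8238 genes. The 2 lower were Zfp36 (-0.71) and Glul (-0.85). The genes called higher included Il1r2 and Mt2, which inflammation also induces. Zbtb16, a zinc finger factor, had 2.93, 0, 0 and 0 CPM in controls and 89.5, 32.9, 77.3 and 86.2 CPM after LPS, with a mean LPS level 22.4-fold the limit. Fkbp5, a co-chaperone of the receptor, was at 502, 474, 576 and 676 CPM after LPS and 43.9, 52.4, 47.9 and 52.1 CPM in controls (log2 fold change 3.43 ± 0.17 (SE), adjusted p = 1.14e-12), and Klf9 at 154, 147, 161 and 141 CPM after LPS and 11.7, 12.6, 6.38 and 2.04 CPM in controls. No library of one group came near the other for either gene, and mouse 4 was highest for Fkbp5. Zfp36 and Cdkn1a, the abundant members that were not called, changed by -0.71 and -0.199.

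Genes of the circadian clock were called in opposite directions. Of 9 tested, 4 were called higher and 3 lower, against 6.79% and 9.29% of all genes tested. Nfil3, a repressor in the clock's output, rose from 5 ± 4.54 to 97.5 ± 25.5 CPM (log2 fold change 3.73 ± 0.31), and Cry1 and Cry2, inhibitors of CLOCK and BMAL1, rose to 16.4 ± 3.5 and 21.8 ± 5.38 CPM. Dbp, an activator in the same output, was at 9.17, 7.98, 13.3 and 5.56 CPM after LPS and 80.5, 68.96, 59.02 and 58.2 CPM in controls (log2 fold change -2.61 ± 0.23 (SE), adjusted p = 1.27e-08). Nr1d1 and Nr1d2, which encode the REV-ERB repressors, fell from 27.7 ± 8.35 to 4.59 ± 1.01 CPM and from 29.1 ± 10.3 to 4.62 ± 3.85 CPM. Tef and Clock changed by -0.88 and 0.38. The hour of the day at which each mouse was sorted was not given in the sources used here.

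Immediate early genes, which respond within minutes to stimulation and also to tissue dissociation, were called lower more often than higher. Of 20 tested, 2 were called higher and 4 lower (10% and 20%, median -0.71), against 6.79% and 9.29% of all genes tested. By the adjusted p alone, 5 were higher and 12 lower, against 1581 and 1688 of all 8238 genes. Fosl2 and Ier3 rose from 6.82 ± 2.15 to 38.6 ± 6.49 CPM and from 821 ± 76.6 to 2523 ± 467 CPM. Nr4a1 and Fosb fell from 86.8 ± 33.3 to 25.2 ± 10.1 CPM and from 634 ± 265 to 216 ± 98.3 CPM, and Ier5 fell with a log2 fold change of -1.03 ± 0.15 that was not called without control mouse 8 (-0.97), LPS mouse 1 (-0.91) or LPS mouse 3 (-0.99). Jun and Btg2 changed by -0.97 and -0.84 without being called, though Jun was called without control mouse 7 (-1.04), LPS mouse 3 (-1.03) or LPS mouse 4 (-1.13). Jun was also called by limma-trend (-1.016) and without the libraries high in red blood cell genes (-1.122). Digestion was at 37 °C in both groups.

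The 12 called genes with the largest fall, chosen in the same way, had log2 fold changes from -3.95 to -2.98. Cbfa2t3, a transcriptional corepressor, was at 8.03, 8.97, 16.9 and 19.5 CPM after LPS and 278, 192, 256 and 196 CPM in controls (log2 fold change -3.95 ± 0.23 (SE), adjusted p = 2.22e-11). Slc2a5, the fructose transporter of microglia (chromosome 4, 149493453 to 149518277, plus strand, NCBI37/mm9), was at 36.7, 47.9, 48.3 and 37.6 CPM after LPS and 627, 638, 582 and 625 CPM in controls (log2 fold change -3.8 ± 0.16 (SE), adjusted p = 2.8e-13). Both were low in each LPS library, and Slc2a5 hardly varied within a group. Gpr34, a receptor of lysophosphatidylserine, held 29.8, 49.9, 68.8 and 73.7 CPM after LPS and 637, 763, 789.6 and 328 CPM in controls, with control mouse 8 the lowest of the controls and still above every LPS library (log2 fold change -3.48 ± 0.26). Hspa1b, an inducible heat shock protein 70, was at 16.1, 26.9, 25.4 and 22.3 CPM after LPS and 318, 338, 298 and 254 CPM in controls (log2 fold change -3.62 ± 0.18 (SE), adjusted p = 1.91e-12). Hpgd, which breaks down prostaglandins, fell from 408 ± 69.9 to 47.1 ± 18.9 CPM, and Susd3 from 769 ± 48.5 to 93.5 ± 44.9 CPM. Slc46a3, a lysosomal transporter, and Thrsp, a regulator of lipid synthesis, fell from 101 ± 12.5 to 6.16 ± 3.896 CPM and from 117 ± 17.7 to 8.21 ± 1.37 CPM. For the remaining 4, Srpk3, Col27a1, Upk1b and Nbeal2, the log2 fold changes were -3.25 ± 0.26, -3.24 ± 0.22, -2.99 ± 0.199 and -2.98 ± 0.23. The groups did not overlap in any of the 12, which the rule required.

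Homeostatic microglia genes were called lower and none of them higher. Of 36 tested members of 37, 19 were called lower and 0 higher, against 9.29% and 6.79% of all genes tested. By the adjusted p alone 28 were lower, against 1688 of all 8238 genes, and the median was -1.14 against 0.01 over all genes. Of the 12 genes with the largest fall, Slc2a5, Gpr34 and Upk1b belong to this list. P2ry12, by which microglia sense ATP and ADP, was at 442, 483, 447 and 435 CPM after LPS and 2268, 2392, 2537 and 2073 CPM in controls (log2 fold change -2.37 ± 0.14 (SE), adjusted p = 2.68e-11). The 4 LPS libraries were nearly the same, and all lay far below the controls. Cx3cr1, the receptor of the neuronal chemokine CX3CL1, stood at 1517, 1261, 2101 and 1712 CPM after LPS and 4016, 4129.7, 3989.5 and 3608 CPM in controls (log2 fold change -1.27 ± 0.16 (SE), adjusted p = 1.1e-06). Tmem119, a membrane protein used as a marker of resident microglia, held 760.4, 778, 1096 and 1256 CPM after LPS and 2047, 3554, 3106 and 3820.3 CPM in controls (log2 fold change -1.696 ± 0.19). In neither gene did a library of one group reach the other. Adgrg1, an adhesion receptor, and Olfml3, a secreted protein, fell from 684 ± 35.2 to 106 ± 19.2 CPM and from 2646 ± 238 to 465 ± 109.8 CPM, and Trem2 and Aif1, which encodes IBA1, from 3120.3 ± 97.99 to 1209 ± 175 CPM and from 1183 ± 26.2 to 364 ± 56.7 CPM. Siglech had a log2 fold change of -1.43 ± 0.17. Not every member fell, since Cst3 and Sparc, among the most abundant, changed by -0.17 and -0.23, and Csf1r, the receptor on which microglia depend for survival, by -0.53 ± 0.15, none of them called.

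Transcription factors of macrophage identity and activation were called in both directions. In this list 5 of 24 tested were called higher and 9 lower, against 6.79% and 9.29% of all genes tested. Sall1, which defines microglia among macrophages, was at 102, 75.8, 124 and 115 CPM after LPS and 318, 318, 361 and 289 CPM in controls (log2 fold change -1.62 ± 0.16 (SE), adjusted p = 5.45e-08). Cebpa, Etv5 and Smad3 fell from 227 ± 33.5 to 59.9 ± 22.6 CPM, from 103 ± 14.7 to 29.1 ± 12.2 CPM and from 106 ± 19.3 to 37.1 ± 5.97 CPM. Each of these stayed clear of its controls in all 4 LPS libraries. Cebpb, which drives acute phase and cytokine genes, rose from 251 ± 33.05 to 619 ± 56.1 CPM, Runx1 from 407 ± 53.7 to 1017 ± 187 CPM and Batf from 26.7 ± 6.13 to 73.5 ± 30.5 CPM. Klf6, an abundant factor, changed by -0.02 and was not called.

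TGF-β signalling genes fell for a ligand, a receptor and an effector. Of 12 tested members, 0 were called higher and 3 lower (median -0.64), against 6.79% and 9.29% of all genes tested. The 3 were Tgfb1, Tgfbr1 and Smad3. Tgfbr1 was at 751, 812, 841 and 825 CPM after LPS and 1889, 1861, 2312 and 1676 CPM in controls (log2 fold change -1.27 ± 0.14 (SE), adjusted p = 2.69e-07). Tgfbr2 was just short of the threshold at -0.99 ± 0.15 and was called without control mouse 6 (-1.01), control mouse 8 (-1.03), LPS mouse 3 (-1.03) or LPS mouse 4 (-1.03). It was also called with a filter of at least 10 reads in every library (-1.013) and without the libraries high in red blood cell genes (-1.072). The count of members called lower was 5 without control mouse 6 and 6 without LPS mouse 4. Nrros, which anchors latent TGF-β on microglia, changed by -0.36.

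The MHC class II genes called lower were those of peptide loading. Of 8 tested, 3 were called lower and 0 higher, against 9.29% and 6.79% of all genes tested. H2-DMb1, H2-Ob and H2-DMa, which load peptide or regulate loading, fell from 232 ± 30.5 to 98.3 ± 21.2 CPM, from 58.7 ± 8.08 to 24.9 ± 4.94 CPM and from 649 ± 47.3 to 317 ± 43.4 CPM, the last not called without LPS mouse 1 (-0.96) or LPS mouse 3 (-0.996). H2-Ab1 and Cd74, the invariant chain, changed by -0.51 ± 0.23 and 0.72 ± 0.23. Control levels of Cd74 ran from 48.3 CPM in mouse 5 to 159 CPM in mouse 6, and without control mouse 6 it was called higher (1.00).

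Genes known from disease-associated microglia were divided as well. Of 24 tested members, 4 were called higher and 4 lower (median -0.05), against 6.79% and 9.29% of all genes tested. Spp1, osteopontin, was at 99.8, 69.8, 130.4 and 234 CPM after LPS and 10.2, 16.5, 11.96 and 11.2 CPM in controls (log2 fold change 3.17 ± 0.31 (SE), adjusted p = 4.28e-08), with mouse 4 the highest. Cd63, a tetraspanin of late endosomes, and Fth1, the heavy chain of ferritin, rose from 354 ± 37.5 to 931 ± 107 CPM and from 4279 ± 223 to 10282 ± 3627 CPM. Lpl, lipoprotein lipase, and Cd9 fell from 52.4 ± 6.24 to 16.6 ± 2.92 CPM and from 1405 ± 205 to 576 ± 82.1 CPM, with Trem2 and Clec7a. Apoe, by contrast, changed by -0.498 ± 0.197 with overlapping groups, and Ctsd by -0.43 ± 0.13. Among lysosomal genes 2 of 27 were called higher and 2 lower, shares close to the 6.79% and 9.29% of all genes tested. Ctsl, cathepsin L, rose from 1135 ± 88.97 to 2315 ± 291 CPM (log2 fold change 1.01 ± 0.14, not called without control mouse 5 at 0.97 or LPS mouse 2 at 0.95) and Gla from 14.2 ± 2.62 to 40.6 ± 4.39 CPM. Ctsl was also not called with a filter of at least 10 reads in every library (0.99). Naglu and Hexa fell from 213 ± 30.6 to 93.5 ± 16.2 CPM and from 1526 ± 92.2 to 687 ± 97.8 CPM, and Ctss changed by 0.26.

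Glycolysis genes were called in both directions. Of 15 tested genes 4 were called higher and 2 lower, against 6.79% and 9.29% of all genes tested. Pfkfb3, which raises the flux through phosphofructokinase, was at 1141, 1279, 799 and 602 CPM after LPS and 138, 116, 113 and 91.9 CPM in controls (log2 fold change 3.03 ± 0.21 (SE), adjusted p = 2.82e-10). Slc2a1, the glucose transporter GLUT1, and Ldha, lactate dehydrogenase A, rose from 33.2 ± 7.55 to 105 ± 16.7 CPM and from 182 ± 33.9 to 416 ± 8.69 CPM. Hk3, a hexokinase of myeloid cells, and Ldhb fell from 189 ± 30.6 to 52.1 ± 17.4 CPM and from 389.97 ± 48.4 to 177 ± 19.9 CPM. Pkm rose by 1.095 ± 0.17, not called without control mouse 7 (0.99) or LPS mouse 3 (0.97), and Gpi1 and Aldoa changed by 0.81 and 0.04. None of 65 tested subunits of oxidative phosphorylation was called by edgeR (18 higher and 4 lower at an unadjusted p below 0.05, and neither DESeq2 nor limma-trend called any). Their median was 0.197, and Cox4i1 and Cox6a1 changed by 0.402 and 0.25.

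Of 60 tested genes of cytosolic ribosomal proteins, 33 passed the adjusted p, all of them higher after LPS, and 7 of these passed 2-fold and were called (median 0.54). Of all 8238 genes tested, 1581 passed the adjusted p in the higher direction and 6.79% were called higher. Rps19 and Rps27a rose from 36.3 ± 9.98 to 100.01 ± 12.8 CPM and from 9.7 ± 2.31 to 27.9 ± 1.46 CPM, Rpl18 had a log2 fold change of 1.22 ± 0.25 that fell to 0.86 and lost the call without LPS mouse 2, and Rplp1 and Rpl8 changed by 0.37 and 0.84. These genes have many near-identical pseudogenes and only uniquely mapped reads were counted, so their levels are uncertain. Cholesterol genes had 1 member called higher, Pmvk (from 29.05 ± 9.48 to 93.3 ± 13.5 CPM), and 1 called lower, Tm7sf2 (log2 fold change -1.04 ± 0.34), of 12 tested. These shares of 8.33% each are close to the 6.79% and 9.29% of all genes tested. The call of Tm7sf2 was lost without control mouse 5 or 8 or LPS mouse 2 or 3 (-0.97 to -0.84). Ebp and Msmo1 changed by 0.06 and -0.09. In the cell cycle list 6 of 25 genes had reads enough to be tested and none was called by edgeR (0 higher and 2 lower at an unadjusted p below 0.05, and DESeq2 called 1 and limma-trend 0). Pcna and Mcm3 changed by 0.201 and -0.56. None of 12 tested p53 targets was called by edgeR (1 higher and 4 lower at an unadjusted p below 0.05, and neither DESeq2 nor limma-trend called any). For the 9 lists with members called by edgeR in 1 direction alone, 0 to 2 members per list reached an unadjusted p below 0.05 in the other direction, and neither DESeq2 nor limma-trend called any there.

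Engrafted cells of the same 8 mice, derived from donor bone marrow and sorted with low CD45.1, were compared with host microglia for the same challenge. In these cells 705 genes were called higher and 744 lower of 7609 tested. Of the genes called in host microglia, 704 were also called in engrafted cells, which is 53.2% of the host calls, 62.9% of the 1120 host calls that were tested in engrafted cells and 48.6% of the engrafted calls, and 699 of the 704 had the same direction. The difference between both changes was tested as the interaction of population and LPS over all 16 libraries, and 421 of 8847 genes were called (4.76%), 212 with the host change more positive (2.40%) and 209 with it more negative (2.36%). With the mouse as a replicate block, 465 genes were called, 403 of them in both fits.

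**Figure D5:**
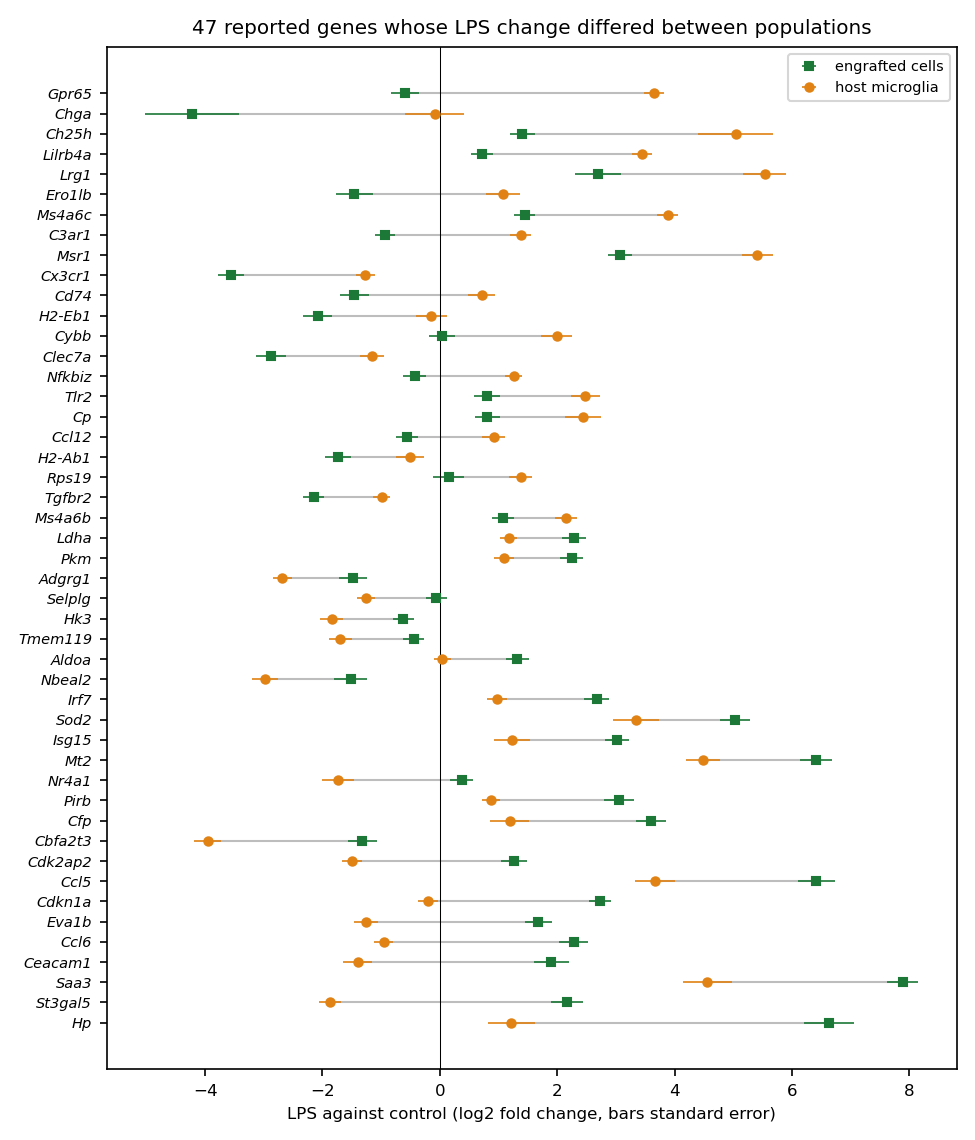
LPS change (x axis, log2 fold change with its standard error as a bar) in host microglia (orange circles) and engrafted cells (green squares) for 47 reported genes whose changes differed between the populations. Genes are ordered by that difference, from Gpr65, which changed more positively in host microglia, to Hp, which changed more positively in engrafted cells.

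Receptors were among the genes that rose more in host microglia than in engrafted cells. Gpr65, a proton-sensing receptor, was at 427, 335, 452 and 424 CPM after LPS and 36.6, 26.2, 33.5 and 26.6 CPM in controls (log2 fold change 3.64 ± 0.17 (SE), adjusted p = 1.11e-12). In engrafted cells it went from 446 ± 88.8 to 299.8 ± 116 CPM (mean ± SD, n = 4), and the difference between the changes was 4.24 ± 0.32, adjusted p = 1.43e-09. Lilrb4a, an inhibitory receptor, rose from 48.7 ± 10.1 to 561 ± 36.9 CPM in the host and went from 693 ± 26.1 to 1176 ± 271 CPM in engrafted cells (difference 2.73 ± 0.24, adjusted p = 1.81e-08). C3ar1 rose in the host and went from 481 ± 52.2 to 258 ± 16.6 CPM in engrafted cells (difference 2.31 ± 0.26, adjusted p = 9.87e-07). Nfkbiz and Cybb, both called higher in the host, changed by -0.43 ± 0.202 and 0.04 ± 0.22 in engrafted cells, with differences of 1.698 and 1.95. The host change was also the more positive for Ch25h (3.61), Lrg1 (2.63), Msr1 (2.31), Tlr2 (1.67), Ccl12 (1.48) and Rps19 (1.22). The last was lost in 10 of the fits without 1 library. Marco had a mean of 1.703 CPM in engrafted cells after LPS and no read in their controls. Its difference of 4.21 was not called by edgeR (adjusted p = 0.957) or DESeq2 and was called by limma-trend (3.91, adjusted p = 0.00352). With no read in the engrafted controls, the edgeR fit gave no usable SE for it.

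Of 36 homeostatic genes tested for a difference, 5 were called, against 4.76% of all genes, and Cx3cr1 had the largest difference among the 5. It kept 1648 ± 354 CPM in challenged host microglia, whereas engrafted cells went from 3665 ± 176 to 317 ± 92.9 CPM (difference 2.31 ± 0.25, adjusted p = 7.76e-07). Clec7a, of the scavenger receptor and disease-associated lists, and Tgfbr2 likewise fell less in the host (differences 1.77 and 1.18). Tmem119, Adgrg1 and Selplg fell more in the host than in engrafted cells (differences -1.23, -1.19 and -1.19), Adgrg1 not being called without engrafted control mouse 6 (-1.15) or engrafted LPS mouse 3 (-0.97). For P2ry12 the difference was -0.87 ± 0.21, adjusted p = 0.0123, and it was not called since it is within 2-fold. Sall1 and Upk1b, low in engrafted cells, had differences of -0.83 ± 0.54, adjusted p = 0.43 and of -2.18 ± 1.08, adjusted p = 0.276 by edgeR, and limma-trend called the latter (-2.15, adjusted p = 0.00121). Cbfa2t3 and Nbeal2 fell more in the host (-2.59 and -1.402), and the latter was not called in 9 of the fits without 1 library. The class II genes H2-Ab1, H2-Eb1 and Cd74 fell in engrafted cells, where H2-Ab1 went from 10687 ± 4058 to 3285 ± 258 CPM, and were not called in the host, where they were far lower (differences 1.25, 1.96 and 2.19). H2-Ab1 lost the call in 10 of the fits without 1 library and was not called by limma-trend (1.20, adjusted p = 0.0564).

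Some genes of the acute phase, of interferon and of glycolysis were among those with the less positive change in host microglia. Lrg1, also of the acute phase, went the other way (2.63). Of 47 interferon-induced genes tested for a difference, 5 were called with the host change more negative and 1 with it more positive. The shares of all genes were 2.36% and 2.40%. Ccl5 went from 64.3 ± 24.1 to 5832 ± 2179.7 CPM in engrafted cells (difference -2.76 ± 0.48, adjusted p = 0.000502). Saa3 reached 22744 ± 5151 CPM there against 1733 ± 1127 CPM in the host (difference -3.33 ± 0.52, adjusted p = 0.000134). The difference was -5.46 for Hp, -1.95 for Mt2, -2.18 for Pirb, a paired receptor, -1.79 for Isg15, -1.699 for Irf7, -2.45 for Cfp (not called without host control mouse 8, -2.03) and -1.705 for Sod2, which lost the call in 12 of the fits without 1 library. That of Sod2 was also not called by DESeq2 (-1.76, adjusted p = 0.0995) or by edgeR with library totals as size factors (-1.65, adjusted p = 0.0503). Ccl6 and Cdkn1a, which were not called in the host, rose in engrafted cells by 2.28 ± 0.25 and 2.73 ± 0.19 (differences -3.23 and -2.92). Nr4a1 fell in the host and changed by 0.37 ± 0.19 in engrafted cells (difference -2.08). Among 16 glycolytic genes tested for a difference, 7 were called, each with the host change the more negative, against 2.36% of all genes in that direction, among them Ldha (-1.11, lost without engrafted control mouse 5 at -0.99 or host control mouse 8 at -0.98), Aldoa (-1.27), Pkm (-1.14) and Hk3 (-1.2). The block changed the call of 2 of the genes reported here, Gas6, whose difference was 1.17 (adjusted p = 0.0748) without and 1.13 (adjusted p = 0.00894) with it, and Lcn2, with -1.95 (adjusted p = 0.167) and -1.99 (adjusted p = 0.0316). Tnf, Tnfaip3 and Spp1 had differences of 0.17, 0.04 and -1.15 that were not called.

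Some genes that LPS moved strongly in engrafted cells stayed low in host microglia. After LPS the host held 6.88, 5.98, 4.83 and 2.78 CPM of Clec4e, a receptor of mycobacterial glycolipid, against 1.46, 3.88, 0.798 and 0 CPM in controls, whereas engrafted cells rose from 3.12 ± 3.03 to 341 ± 145 CPM. Ly6c2, Ltb4r1 and Slpi had host means of 5.696, 4.21 and 2.08 CPM after LPS, against 716, 414 and 378 CPM in engrafted cells. Cmah, Cd36 and Mgl2 were the reverse, high in unchallenged engrafted cells (110.3, 55.7 and 52.6 CPM) and at most 4.83 CPM in any host library. None of these 7 genes passed the filter in the host. Two-sided exact permutation tests of LPS against control in the host, for which 0.029 is the smallest p with 4 against 4, gave p = 0.0571 for Clec4e, 0.343 for Ly6c2, 0.143 for Slpi and 0.629 for Cd36. Cmah and Mgl2 had 3 reads or fewer in every host library, and no p is given for Ltb4r1. Beside these levels stand the marker sums of the populations, in which 8 monocyte markers had summed means of 32.6 CPM in challenged host microglia and 1719 CPM in challenged engrafted cells, and 12 neutrophil markers 12.1 and 352 CPM. Their part in the differences was not tested.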

How the data were processed

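RNA of sorted microglia was measured by 3′ tag RNA-seq, a derivative of MARS-seq. By the study's methods and the submitters' processing notes, reads were mapped with HISAT to the NCBI37/mm9 genome, uniquely mapped reads were kept, and HOMER counted them over exons on the sense strand, condensed to 1 row per gene. The deposited values are raw counts per gene, as the authors made them, without normalization. The version of HISAT differs between these sources. No removal of duplicate reads is named, so intervals and limits cover counting error only. Limits of detection take a count of 0 as allowing up to 3 reads.

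The 8 host libraries were fitted with edgeR 4.0.16 (TMM, filterByExpr with a minimum count of 10 and a minimum total of 15, quasi-likelihood F test, R 4.3.3) and p-values were adjusted by Benjamini-Hochberg over 8238 genes. The fold changes use a prior count of 2, and the SE is the log2 fold change divided by the square root of F. CPM use effective sizes over all 16 libraries. The interaction of population and LPS was fitted over 16 libraries and 8847 genes. Host and engrafted libraries of 1 number come from the same mouse, and their deviations from the group means correlated with r = 0.196, -0.003, 0.236 and 0.108 for mice 1 to 4 and 0.046, -0.012, 0.005 and 0.049 for mice 5 to 8 (7286 genes). The mouse was therefore also fitted as a replicate block. The counts of replicate pairs differed by more than sampling noise, with a chi-square per degree of freedom of 2.07 to 7.92 in 12 pairs. On data simulated for 8238 genes of the host comparison, 56 of 57 genes changed by 2.83-fold, 65 of 65 by 4-fold and 58 of 58 by 8-fold were called, with 3 false among 182 calls. For the interaction over 8847 genes, 93 of 106 at 4-fold and 85 of 88 at 8-fold were called, with 6 false among 184. Both simulations drew counts independently and gave a changed gene the same change in every host LPS library. They do not cover smaller changes, mice that respond by different amounts or libraries that share a mouse.

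Genes named are the 12 per direction with the largest called change, no overlap and a mean that reached 50 CPM, the genes the study names for its LPS challenge, from each list up to 3 called members per direction and the 2 most abundant that were not called, and the 5 per direction with the largest interaction at a mean of at least 50 CPM over 16 libraries. Others were added to state how a list splits. The comparison, its gene lists and tests were chosen with earlier results of these data known. DESeq2 1.42.0 and limma 3.58.1 served as alternatives. Results of some genes are not reported here.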

Additional observations from a re-analysis of the deposited data

Results flagged for a closer look

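In 16 of 362 groups of 4 libraries, 1 library stood farther from the other 3 than Dixon's critical value for 4 allows, and chance alone gives about 1 in 20. Lower than the other controls was control mouse 5 for Upk1b (201 CPM) and for Batf (17.6 CPM). The values that stood apart elsewhere among controls were 18.3 CPM of Bcl3 and 247 CPM of Cxcl10 in mouse 7, 254 CPM of C3ar1 and 7437 CPM of Apoe in mouse 8, and 94.2 CPM of Chga and 66.04 CPM of Pth in mouse 6. In LPS mouse 2 they were 1471 CPM of Trem2, 666 CPM of Bst2, 255 CPM of Rpl18 and 3810 CPM of Rplp1. In LPS mouse 1 they were 135 CPM of Nfil3 and 29.8 CPM of Cry2, in LPS mouse 3 it was 38.6 CPM of Tlr4, and in LPS mouse 4 it was 45.9 CPM of Smad3.

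For 48 reported genes the LPS change differed between host microglia and engrafted cells by the interaction of population and LPS (edgeR, adjusted p below 0.05 and an absolute difference above 1 on the log2 scale). The host change was the more positive, with differences on the log2 scale of Gpr65 4.24, Chga 4.21, Pth 4.17, Ch25h 3.61, Lilrb4a 2.73, Lrg1 2.63, Ero1lb 2.56, Ms4a6c 2.44, C3ar1 2.31, Msr1 2.31, Cx3cr1 2.31, Cd74 2.19, H2-Eb1 1.96, Cybb 1.95, Clec7a 1.77, Nfkbiz 1.70, Tlr2 1.67, Cp 1.62, Ccl12 1.48, H2-Ab1 1.25, Rps19 1.23, Tgfbr2 1.18 and Ms4a6b 1.08. The host change was the more negative, with differences of Hp -5.46, St3gal5 -4.05, Saa3 -3.33, Ceacam1 -3.29, Ccl6 -3.23, Eva1b -2.92, Cdkn1a -2.92, Ccl5 -2.76, Cdk2ap2 -2.74, Cbfa2t3 -2.59, Cfp -2.45, Pirb -2.18, Nr4a1 -2.08, Mt2 -1.95, Isg15 -1.79, Sod2 -1.70, Irf7 -1.70, Nbeal2 -1.40, Aldoa -1.27, Tmem119 -1.23, Hk3 -1.20, Selplg -1.19, Adgrg1 -1.19, Pkm -1.14 and Ldha -1.11. The difference of Ms4a6b was no longer called without engrafted control mouse 8 (0.986), engrafted LPS mouse 2 (0.974) or host LPS mouse 3 (0.872). Those of Chga and Pth were called by neither DESeq2 (3.996 and 3.906) nor limma-trend (3.181 and 3.927), and were lost in 8 and 10 of the fits without 1 library.

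For 6 further genes, which did not pass the filter in the host, no host library exceeded 16.3 CPM and most lay at or near the limit of detection. Their interaction values rest on those few reads and are no bound of a difference. They were Cmah 5.58 and Cd36 3.99 with the host change more positive and Slpi -5.66, Ltb4r1 -5.41, Ly6c2 -5.06 and Clec4e -5.05 with it more negative. Those of Cmah and Cd36 were not called without host LPS mouse 3 (5.409 and 3.586), that of Clec4e not without host control mouse 6 (-4.733), and that of Slpi not without host control mouse 6, 7 or 8 (-5.677, -5.681 and -5.505).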

How the results depend on the processing

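The counts of 559 genes higher and 765 lower after LPS and of 421 differences between the populations stayed within 1.5 times under other size factors, no filter, DESeq2 and limma-trend. The first 2 counts, for which alone they were run, also did so under a single fit of all libraries and a test against 1.5-fold. A filter of at least 10 reads in every library gave 358, 464 and 234, since fewer genes were tested. Leaving out 1 library gave 566 to 642 genes higher, 734 to 940 lower and 302 to 461 differences. No paired analysis was possible for LPS in host microglia because challenged and control mice share no number. With the mouse as a replicate block, 465 differences were called, and among reported genes the block changed the calls of Gas6 and Lcn2 and no other. Leaving out the 2 libraries high in red blood cell genes, an alternative chosen after seeing the data, gave 632 genes higher and 900 lower. Of 179 reported genes, 152 kept their call and direction under every alternative run, 10 lost and 8 gained a call, and of 62 differences 44 kept, 14 lost and 4 gained it. Of 768 counts of list members under these alternatives 714 stayed within 1.5 times. Signs turned only for changes that were not called, and the cause was not tested: Aldoa (-0.027 without control mouse 7), Bst2 (-0.126) and Cyba (-0.032) without LPS mouse 2, Chga (0.199 with limma-trend, 1.088 without control mouse 6, 0.119 without LPS mouse 1, 0.224 without LPS mouse 2), Ebi3 (0.078 without LPS mouse 4, 0.114 without the libraries high in red blood cell genes), Ebp (-0.052 without control mouse 8, -0.037 without those libraries), H2-D1 (0.011 without LPS mouse 3), H2-Eb1 (0.247 without control mouse 6) and Klf6 (0.003 without a filter, 0.059 without control mouse 6, 0.034 without LPS mouse 1, 0.16 without LPS mouse 2). Over all fits without 1 library these genes ranged from -0.027 to 0.11 (Aldoa), -0.126 to 0.202 (Bst2), -0.819 to 1.088 (Chga), -0.032 to 0.126 (Cyba), -0.382 to 0.078 (Ebi3), -0.052 to 0.19 (Ebp), -0.086 to 0.011 (H2-D1), -0.302 to 0.247 (H2-Eb1) and -0.155 to 0.16 (Klf6). Genes with few reads are limited by depth, and 22 genes rose from 3 reads or fewer in every control library.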

Other observations

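Genes chosen after their values were seen showed further changes in host microglia. The other members of their families were not counted. The iron genes chosen moved in both directions. Slc40a1, the iron exporter ferroportin, stood at 17.2, 18.9, 33.8 and 43.1 CPM after LPS and 130.3, 114, 125 and 108 CPM in controls (log2 fold change -2.04 ± 0.22 (SE), adjusted p = 2.13e-07). The importers Slc39a14 and Slc11a2 rose from 16.4 ± 3.59 to 164 ± 26.3 CPM and from 19 ± 2.95 to 101 ± 66.7 CPM (mean ± SD, n = 4), and Cp, ceruloplasmin, from 19.3 ± 4.96 to 115 ± 61.7 CPM. The groups did not overlap in any of these 4 genes, which held for 35.7% of all genes tested. Of the Ms4a family of membrane proteins, the genes chosen rose. Their log2 fold changes were 2.15 ± 0.18 for Ms4a6b, 3.88 ± 0.18 for Ms4a6c and 3.503 ± 0.15 for Ms4a6d. The heat shock genes Hspa1a and Dnajb1 fell from 701 ± 57.3 to 136 ± 64.05 CPM and from 345 ± 55.8 to 95.1 ± 31.6 CPM, as did Hspa1b.

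Among the 704 genes called in both host microglia and engrafted cells, 5 were called in opposite directions. These were Cdk2ap2 (-1.496 in the host and 1.26 in engrafted cells on the log2 scale), Ceacam1 (-1.403 and 1.897), Ero1lb (1.08 and -1.46), Eva1b (-1.25 and 1.68) and St3gal5 (-1.87 and 2.17). The host call of Ero1lb was lost without control mouse 5 (0.98), control mouse 7 (0.978) or LPS mouse 3 (0.947). St3gal5, the synthase of ganglioside GM3 (chromosome 6, 72047602 to 72104564, plus strand, NCBI37/mm9), was at 37.8, 32.9, 59.2 and 55.6 CPM after LPS and 167, 182, 175 and 164 CPM in controls, and engrafted cells went from 9.13 ± 3.801 to 54.2 ± 7.23 CPM.

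The order of the LPS mice was not the same for all genes. Of 526 genes called higher without overlap, mouse 2 was highest in 230, mouse 1 in 138, mouse 3 in 94 and mouse 4 in 64. Il1r2, Lrg1, Spp1 and Fkbp5 were highest in mouse 4, while Ccl5, Il1rn and Acod1 were lowest there. The genes Chga and Pth, of secreted peptides, did not separate the host groups. Chga stood at 94.2 CPM in control mouse 6 and 76.1 CPM in LPS mouse 3 against 11.7 to 27.8 CPM in the other host libraries, and Pth at 66.0 and 54.3 CPM in the same libraries against 4.08 to 20.9 CPM. Chga had a log2 fold change of -0.08 ± 0.502 in the host and was not called, and Pth did not pass the filter there. In engrafted cells both were called lower after LPS by edgeR, Chga from 376 ± 388 to 23.1 ± 25.9 CPM (mean ± SD, n = 4; adjusted p = 0.000305) and Pth from 349 ± 349 to 25.6 ± 33.6 CPM (adjusted p = 0.00031).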
